A study of Mus musculus with 18 samples.

Results

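The Hox genes encode homeodomain transcription factors that lie in 4 chromosomal clusters, Hoxa to Hoxd, and 38 of them were examined here by symbol in the MEF table, which lists 21959 genes, and in the liver table, which lists 51826 genes. Mice lacking repeat B of Xist, the X-linked RNA that coats and silences the inactive X chromosome, were compared with WT mice. The mice carried the deletion, made by CRISPR/Cas9, in the germ line, so it was not limited to one tissue. Each group held 3 libraries: RepB-/- primary MEFs, WT primary MEFs, RepB-/- liver and WT liver. The study's methods name ICR mice, the labels give no age or sex, and the titles name the genotypes only as B and W, read here as RepB-/- and WT. The labels give the MEF samples a tail source and at the same time call them a primary MEF line, a culture of embryonic fibroblasts. The paper's methods name primary MEFs for RNA, while its results speak of tail and ear fibroblasts for ChIP-seq and X-linked expression. The body site of these cells is therefore not settled, and nothing states whether the 3 libraries of a genotype came from separate embryos. P-values therefore measure only the spread between these libraries, which may be technical.

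Hox genes are numbered by paralogue group along each cluster. Low numbers are used in the head and neck, high numbers in the lumbar, sacral and tail regions and in the distal limb, and the order on the chromosome follows the order along the body axis. Cultured fibroblasts are known to keep the Hox pattern of the body site they were taken from. Outside the embryo, Polycomb complexes keep silent Hox genes repressed and Trithorax proteins keep active ones open.

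In GRCm38, members of cluster A spanned chr6:52162417-52260880 on the minus strand. Cluster B lay at chr11:96194316-96368256, cluster C at chr15:102921103-103036852 and cluster D at chr2:74668310-74765142, all on the plus strand. Each member carries a homeobox, a stretch of 180 bases that encodes the DNA-binding homeodomain. A homeobox was found in the coding sequence of 38 of 38 members in GENCODE vM21. Shown are those of 4 of the 5 members with the highest levels per length in WT MEFs, Hoxb9 and Hoxb13, which fell, and Hoxc12 and Hoxc13, which did not pass, because paralogues that resemble each other can share reads. The capitals mark the codons of the core of the recognition helix. They lie at chr11:96274659-96274838 (Hoxb9), chr11:96196020-96196199 (Hoxb13), chr15:102938308-102938487 (Hoxc12) and chr15:102927210-102927389 (Hoxc13), each within 1 exon.
Hoxb9: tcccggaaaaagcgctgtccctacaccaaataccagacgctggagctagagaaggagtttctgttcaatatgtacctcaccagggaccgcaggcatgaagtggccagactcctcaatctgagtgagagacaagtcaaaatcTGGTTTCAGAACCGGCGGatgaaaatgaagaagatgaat
Hoxb13: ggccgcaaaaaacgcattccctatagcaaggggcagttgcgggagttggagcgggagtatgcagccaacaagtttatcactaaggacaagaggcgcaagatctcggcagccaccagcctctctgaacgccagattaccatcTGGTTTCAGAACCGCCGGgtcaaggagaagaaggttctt
Hoxc12: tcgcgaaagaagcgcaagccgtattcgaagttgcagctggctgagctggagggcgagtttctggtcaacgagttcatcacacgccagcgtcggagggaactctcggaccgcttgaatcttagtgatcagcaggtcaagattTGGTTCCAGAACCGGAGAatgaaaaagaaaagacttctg
Hoxc13: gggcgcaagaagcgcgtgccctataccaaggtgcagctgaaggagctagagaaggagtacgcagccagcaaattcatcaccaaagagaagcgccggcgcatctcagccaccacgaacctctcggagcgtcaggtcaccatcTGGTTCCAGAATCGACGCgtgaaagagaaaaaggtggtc
Hoxc12 and Hoxc13 matched at 112 of 180 positions, and Hoxb13 and Hoxc13 at 133. Hoxb9 matched Hoxc9 at 151 positions and Hoxd9 at 152. Median identity was 80.6% over the 40 pairs of the same paralogue number and 60.6% over the other 663 pairs. The longest run of identical bases in any pair, aligned from the first homeobox base, was 52. In these homeoboxes a fragment longer than that run differs between members, although reads within the run could be assigned to either gene of such a pair.

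Gene bodies also overlap within the clusters. In the MEF table, 11 members shared part of their span with another member, in which Hoxa3 covered Hoxa4, Hoxa5 and Hoxa6, Hoxc5 covered parts or all of Hoxc6, Hoxc8, Hoxc9 and Hoxc10, and Hoxd3 covered Hoxd4. How the authors' counting assigned reads in such overlaps is not given in the sources used here, so values of these members are uncertain, and Hoxa3, Hoxa4 and Hoxa5 are the 3 of them named below as changed.

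MEF libraries held 11540344 to 20587556 counts, with every RepB-/- library deeper than every WT library, and liver libraries held 37682201 to 51542709. Depth in MEFs thus moved with genotype, and its part in the differences was not tested. Fibroblast markers were abundant in MEFs, and 10 of 10 were tested. Their summed level, in counts per library size scaled by edgeR's TMM factors (CPM), was 19568 to 21727 in RepB-/- and 13297 to 17538 in WT. In liver, the summed hepatocyte markers lay between 109193 and 190574 CPM. Xist had no row in the MEF counts used here. In liver it had 14704 and 22681 counts in RepB-/- replicates 1 and 3, 4 counts in RepB-/- replicate 2, and 14494 to 26345 counts in WT, but counts of the whole gene do not test a deletion of one repeat. The same RepB-/- replicate 2 held 4342 counts of 4 Y-linked genes, against 0 or 1 in the other liver libraries. Such Y-linked and Xist counts are those of male tissue, so this library stands apart from the other 5. The paper writes male carriers as RepB-/Y, but the group label RepB-/- is kept here for this library. In MEFs the same 4 genes had 0 counts in each RepB-/- library and 4, 1 and 0 counts in WT replicates 1 to 3.

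MEFs carried a posterior Hox pattern. Levels per length, as the deposited FPKM (fragments scaled by gene length and library total), were highest in WT for Hoxb9, a gene of the thoracic and lumbar axis, at 34.6 ± 6.26 FPKM (mean ± SD, n = 3). Next came Hoxc12 at 29.0 ± 1.54 FPKM, Hoxc13 at 21.9 ± 0.813 FPKM, Hoxc11 at 16.1 ± 3.13 FPKM and Hoxb13 at 13.3 ± 0.52 FPKM. These are genes of the tail end of their clusters. The WT libraries of Hoxb9 and Hoxc12 overlapped, while Hoxc12 and Hoxc13, Hoxc13 and Hoxc11, and Hoxc11 and Hoxb13 were apart from each other in that order.

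Below these 5 came Hoxb6 at 11.8 ± 2.22 FPKM, Hoxc10 at 10.3 ± 0.245 FPKM and Hoxb7 at 10.2 ± 1.46 FPKM in WT, whose libraries overlapped from one to the next. In all, 22 of 38 members reached a mean of 1 FPKM in WT and 17 did in RepB-/-. FPKM is not scaled by TMM factors, and the share of all genes reaching that mean was not taken. Some members lay close to it, such as Hoxb3 at 1.04 FPKM in WT and Hoxa9 at 0.991 FPKM in RepB-/-. Of the 12 members highest in WT, 11 were also among the 12 highest in RepB-/-. In RepB-/-, Hoxb9 stood at 18.2 ± 1.53 FPKM, below Hoxc12 at 31.3 ± 3.18 FPKM and Hoxc13 at 23.4 ± 0.687 FPKM.

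**Figure D1:**
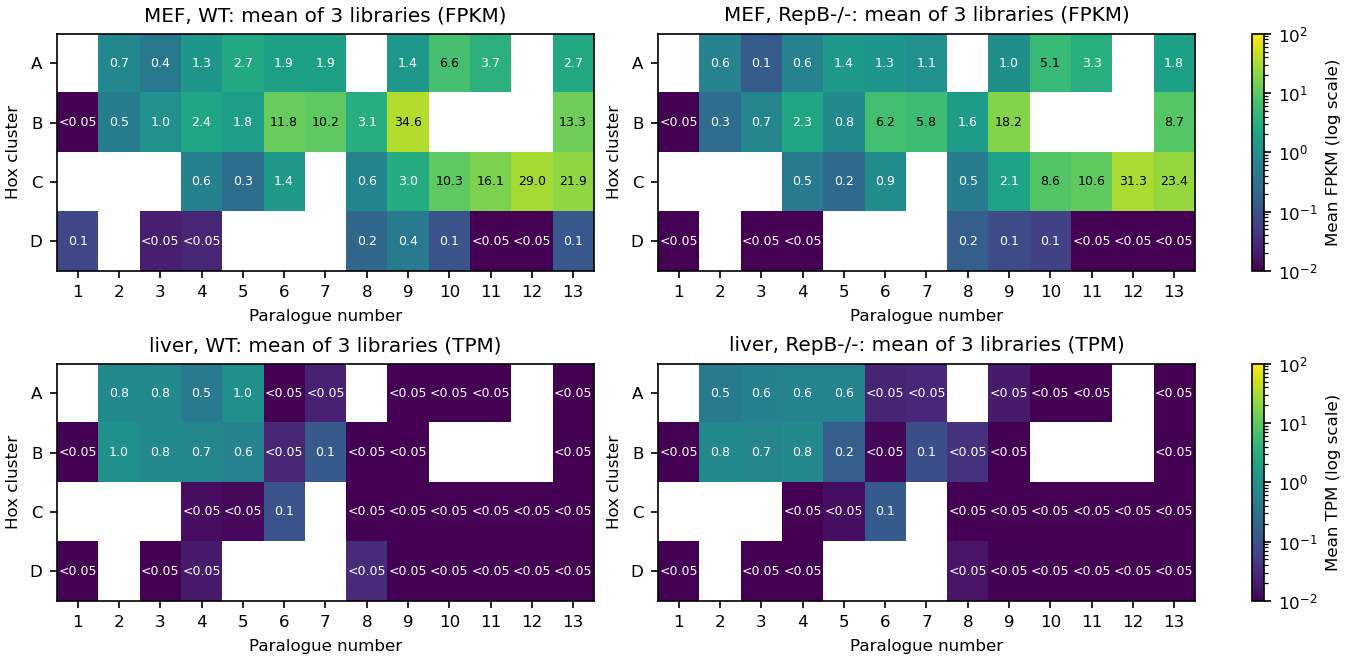
Mean level of each of the 38 Hox genes by cluster (rows) and paralogue number (columns) in WT and RepB-/- MEFs (FPKM) and liver (TPM, scaled by gene length and library), 3 libraries each, on a log colour scale; white cells hold no member. In MEFs the high values lie toward the right of clusters B and C, with 34.6 FPKM for WT Hoxb9, and in liver the members above 0.15 TPM are paralogues 2 to 5 of clusters A and B.

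Cluster D was almost silent. Its summed level was 1.02 ± 0.344 FPKM in WT and 0.319 ± 0.136 FPKM in RepB-/-, against 83.2 ± 2.79 and 78.0 ± 2.07 FPKM for cluster C. No member of the cluster exceeded 15 counts in any MEF library. Hoxb1, a hindbrain gene, had 0 counts in every MEF library, which allows up to 0.146 to 0.26 CPM depending on the library. Hoxd13, a digit and genital gene, had 4, 4 and 5 counts in WT replicates 1 to 3 and 0, 0 and 1 in RepB-/-. It was among the 8 members that did not pass the filter on low counts, and 6 of the 38 members had no more than 3 counts in any library.

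In the comparison of RepB-/- with WT MEFs, 30 of the 38 members had enough counts to be tested. By edgeR's quasi-likelihood test, with p adjusted by Benjamini-Hochberg over the 13306 genes tested, 12 of the 30 fell and 0 rose at an adjusted p of 0.05. Among all genes tested, 19.7% fell and 19.4% rose. Of the 12, Hoxd9 passed the filter on low counts only through its WT libraries. At an unadjusted p of 0.05, 14 members were lower and 2 were higher, against 24.1% lower and 23.6% higher among all genes tested. With DESeq2, 11 of 32 tested members fell and 0 rose, while 2754 of 16355 tested genes fell and 2374 rose. The median log2 fold change was -0.46 over the 30 members and 0.00 over all tested genes, and 27 of the 30 members had a fold change below 0. The members that passed included those with the most and those with few counts, so the genes are given by position below. Since these are bulk cultures, fewer cells of a type and less RNA per cell cannot be told apart.

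**Figure D2:**
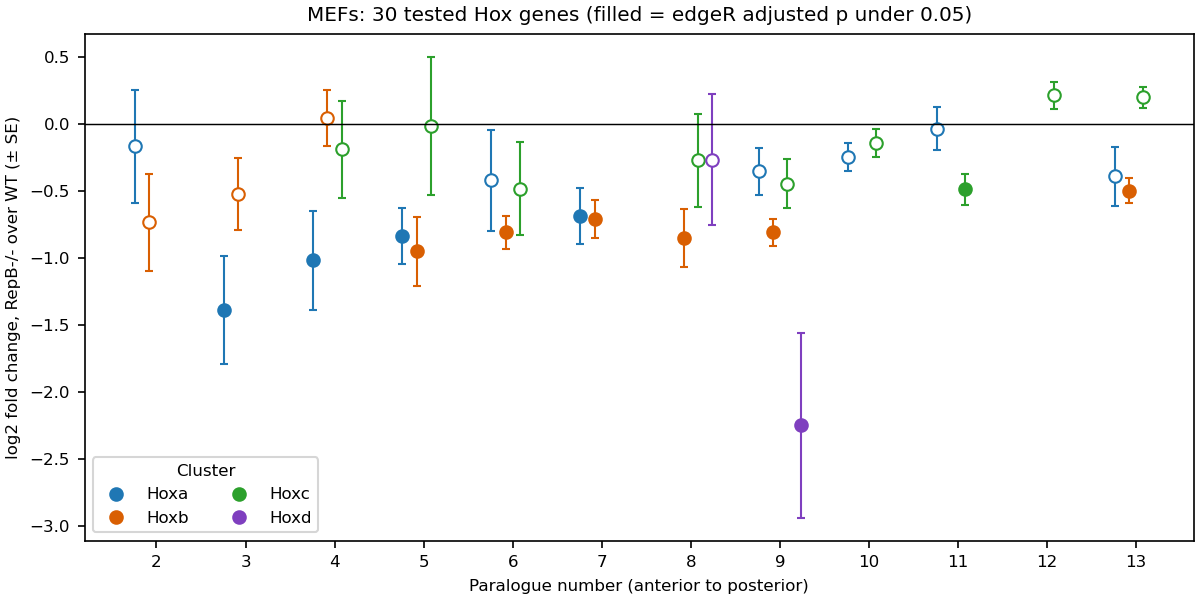
Log2 fold change of RepB-/- over WT in MEFs (± SE) for each of the 30 tested Hox genes against paralogue number, coloured by cluster, with filled points for an adjusted p under 0.05 by edgeR. Hoxb5 to Hoxb9 lie between -0.95 and -0.71, whereas Hoxc12 and Hoxc13 are the points near 0.2 with open symbols.

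Cluster B held the largest number of members that fell, 6 of 9 tested against 19.7% of all tested genes, with a median log2 fold change of -0.73. These were the neighbours Hoxb5, Hoxb6, Hoxb7, Hoxb8 and Hoxb9, which lie between chr11:96271457-96306121, and the distant Hoxb13. Hoxb2, Hoxb3 and Hoxb4 did not pass in the main fit.

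Hoxb9 was at 99.5, 77.9 and 78.6 CPM in WT replicates 1 to 3 and at 44.8, 48.5 and 53.0 CPM in RepB-/-. Every RepB-/- library lay below every WT library, and WT replicate 1 stood highest. The log2 fold change was -0.81 ± 0.10 (SE), with an adjusted p of 6.01e-05 by edgeR.

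Hoxb13, known for setting where the tail axis ends, was at 28.2, 28.0 and 28.6 CPM in WT and at 21.2, 18.96 and 20.1 CPM in RepB-/-. Both genotypes were tight and did not overlap. It fell by 0.50 on the log2 scale, with an SE of 0.093 and an adjusted p of 0.000972 by edgeR.

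Hoxb6, a thoracic gene of limb and trunk mesoderm, was at 26.0, 19.9 and 20.61 CPM in WT and at 12.4, 12.3 and 13.1 CPM in RepB-/-, without overlap (log2 fold change -0.81 ± 0.12, adjusted p = 0.000216 by edgeR). Hoxb7, also thoracic, was at 16.3, 16.4 and 12.9 CPM in WT and at 8.72, 8.73 and 10.4 CPM in RepB-/- (log2 fold change -0.71 ± 0.14, adjusted p = 0.00141 by edgeR). Its genotypes did not overlap either, and WT replicate 3 was the lowest of WT.

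Hoxb8, used in the trunk and in blood progenitors, was at 10.4, 6.93 and 5.9996 CPM in WT and at 4.54, 4.13 and 4.16 CPM in RepB-/- (log2 fold change -0.85 ± 0.22, adjusted p = 0.0068 by edgeR). Hoxb5, which helps place the shoulder girdle, was at 6.09, 4.27 and 3.68 CPM in WT and at 2.34, 2.79 and 2.08 CPM in RepB-/- (log2 fold change -0.95 ± 0.26, adjusted p = 0.00989 by edgeR). In both genes the RepB-/- libraries were close together and all below WT, and WT replicate 1 was the highest library. Hoxb4, a cervical gene also used in blood stem cells, was at 6.09, 5.87 and 5.58 CPM in WT and at 4.74, 5.42 and 7.96 CPM in RepB-/-. Its RepB-/- libraries lay on either side of WT, and the log2 fold change was 0.05 ± 0.21, with an adjusted p of 0.87 by edgeR.

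In cluster A, 4 of 10 tested members fell, namely Hoxa3, Hoxa4, Hoxa5 and Hoxa7, against 19.7% of all tested genes. A fold change below 0 was found in 10 of 10. Hoxa5, which patterns the cervical to thoracic transition and the lung, was at 5.21, 4.70 and 4.69 CPM in WT and at 2.50, 2.84 and 2.84 CPM in RepB-/-. The genotypes were apart, with a log2 fold change of -0.83 ± 0.21 and an adjusted p of 0.00686 by edgeR.

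Hoxa7, a thoracic gene, was at 5.61, 5.07 and 4.81 CPM in WT and at 3.47, 3.41 and 2.74 CPM in RepB-/- (log2 fold change -0.69 ± 0.21, adjusted p = 0.0183 by edgeR). Hoxa3, needed for the thymus and parathyroid, was at 3.37, 2.23 and 1.60 CPM in WT and at 0.97, 1.24 and 0.51 CPM in RepB-/- (log2 fold change -1.39 ± 0.40, adjusted p = 0.0145 by edgeR). Hoxa4, of the neck vertebrae, was at 2.08, 1.48 and 2.44 CPM in WT and at 0.66, 1.34 and 0.96 CPM in RepB-/- (log2 fold change -1.02 ± 0.37, adjusted p = 0.042 by edgeR). None of these 3 overlapped, but Hoxa3 and Hoxa4 had 10 to 42 counts per library. Hoxa3 and Hoxa7 missed the threshold without RepB-/- replicate 3 (adjusted p = 0.0612 and 0.0701 by edgeR), and Hoxa4 missed it with DESeq2 (adjusted p = 0.0813) and without any of RepB-/- replicates 1 and 3 and WT replicates 1 and 3.

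Posterior members of cluster A did not pass in the main fit, although Hoxa10 did in an alternative. Hoxa10, which suppresses ribs in the lumbar region and patterns the uterus, was at 19.6, 21.5 and 20.8 CPM in WT and at 16.4, 16.8 and 19.1 CPM in RepB-/-. These libraries did not overlap, and the log2 fold change was -0.25 ± 0.11 with an adjusted p of 0.0788 by edgeR. Hoxa11, a gene of the forearm and lower leg, was at 7.38, 8.16 and 8.79 CPM in WT and at 8.97, 6.77 and 8.11 CPM in RepB-/-, which overlapped. Its log2 fold change of -0.03 ± 0.16 had an adjusted p of 0.885 by edgeR. Hoxa9, used at the thoracic to lumbar level and in leukaemic cells, was at 8.58, 6.55 and 7.01 CPM in WT and at 6.07, 5.06 and 6.13 CPM in RepB-/-. RepB-/- was below WT in every library, with a log2 fold change of -0.35 ± 0.18 and an adjusted p of 0.128 by edgeR.

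**Figure D3:**
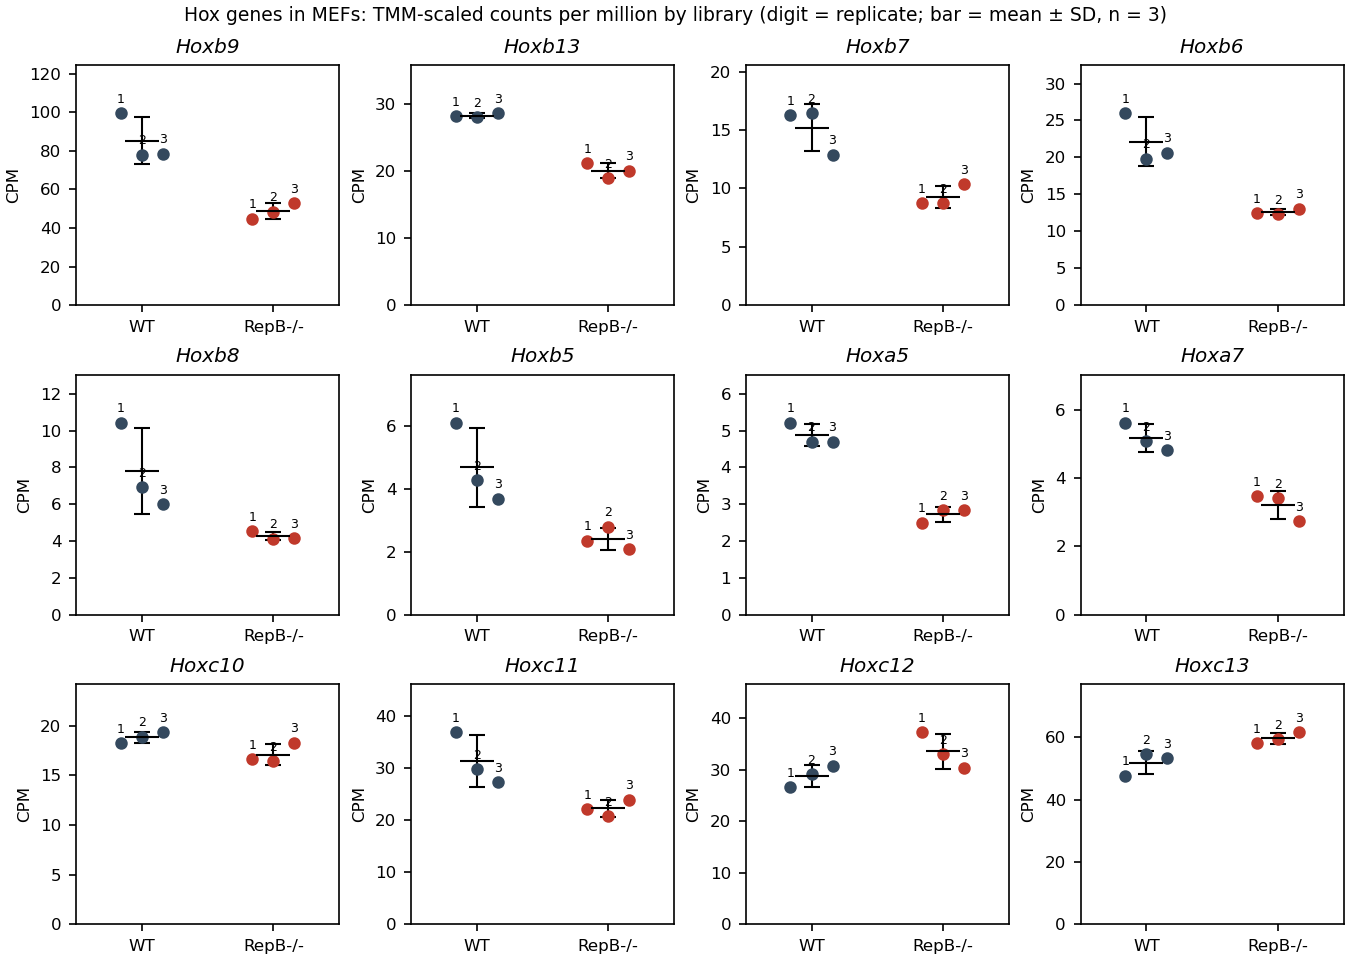
CPM of 12 Hox genes in each MEF library, with the replicate number over each point and bars for mean ± SD (n = 3). WT replicate 1 is the highest library for Hoxb9 at 99.5 CPM, Hoxb13 is flat within each genotype, and the RepB-/- libraries of Hoxc13 lie above those of WT.

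In cluster C, 1 of 9 tested members fell, against 19.7% of all tested genes, and the median log2 fold change was -0.19. Hoxc11, a gene of the hindlimb and sacral axis, was at 36.9, 29.7 and 27.3 CPM in WT and at 22.1, 20.8 and 23.9 CPM in RepB-/-. The genotypes were apart, with WT replicate 1 highest, and the log2 fold change was -0.49 ± 0.12 with an adjusted p of 0.0048 by edgeR.

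Hoxc13, which drives keratin genes of hair and nail, was at 47.7, 54.7 and 53.4 CPM in WT and at 58.2, 59.5 and 61.7 CPM in RepB-/-. It was the one tested member whose RepB-/- libraries all lay above WT, but the difference of 0.20 ± 0.079 on the log2 scale did not pass (adjusted p = 0.0575 by edgeR). Hoxc12, next to it on chromosome 15, was at 26.5, 29.1 and 30.8 CPM in WT and at 37.3, 33.0 and 30.4 CPM in RepB-/-. RepB-/- replicate 3 lay below WT replicate 3, and the log2 fold change of 0.22 ± 0.10 had an adjusted p of 0.101 by edgeR. Both stayed above 0 in 11 of 11 alternatives, between 0.09 and 0.24 for Hoxc13 and between 0.11 and 0.29 for Hoxc12. Both passed with no filter on low counts (adjusted p = 0.0329 and 0.0458 by edgeR), and Hoxc13 did without WT replicate 2 (adjusted p = 0.0477 by edgeR).

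Between these ends, Hoxc10, of the lumbar cord and hindlimb, was at 18.3, 18.9 and 19.4 CPM in WT and at 16.6, 16.4 and 18.3 CPM in RepB-/-. The libraries just met, and the log2 fold change of -0.14 ± 0.10 had an adjusted p of 0.295 by edgeR. Hoxc9, which specifies thoracic motor neurons, was at 7.38, 7.61 and 6.36 CPM in WT and at 5.61, 4.24 and 5.83 CPM in RepB-/-. It did not overlap and had a log2 fold change of -0.44 ± 0.18, with an adjusted p of 0.0713 by edgeR. Hoxb9, its paralogue in cluster B, stood at 34.6 FPKM in WT, against 3.04 FPKM for Hoxc9.

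In cluster D, Hoxd9, of the hindlimb and lumbar axis, had 15, 11 and 14 counts in WT and 8, 0 and 3 counts in RepB-/-. The WT libraries were all higher, and the log2 fold change was -2.25 ± 0.69 with an adjusted p of 0.0192 by edgeR. No RepB-/- library reached 10 counts, so Hoxd9 passed the filter on low counts only through WT. Its place among the tested members thus came from the group where it was higher. The call was lost without RepB-/- replicate 2 (adjusted p = 0.0691) or replicate 3 (adjusted p = 0.0666). Hoxd8, the other tested member of the cluster, had 6 to 12 counts per library and did not pass.

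Seen by paralogue number, 2 of 7 tested members of groups 1 to 4 fell and 6 of 11 of groups 5 to 8. Of groups 9 to 11, 3 of 8 fell, Hoxd9 among them, which passed the filter on low counts only through WT. Of groups 12 and 13, 1 of 4 fell. Among all tested MEF genes 19.7% fell, and some of these counts, such as 1 of 4, are near that share. The median log2 fold changes of these groups were -0.52, -0.69, -0.40 and -0.09 in that order. Across the 30 genes, Spearman's rho between paralogue number and log2 fold change was 0.30, and within clusters it was 0.47 for A (10 genes), -0.10 for B (9 genes) and 0.30 for C (9 genes). These are descriptions across genes of the same 6 libraries, which are not independent. Among paralogues 13, Hoxb13 fell, and Hoxa13 and Hoxc13 had log2 fold changes of -0.39 ± 0.22 and 0.20 ± 0.079 that did not pass (adjusted p = 0.182 and 0.0575 by edgeR). Differences between paralogues were not tested.

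The libraries of the genotypes did not overlap, with RepB-/- below WT, for 17 of the 30 tested members, against 25.8% of all tested genes. Among the 17 was Hoxd9, tested only through its WT counts. For 1 of the 30, Hoxc13, RepB-/- lay above WT, against 26.4% of all tested genes. The other 12 members overlapped. The 10 tested members not given by library were Hoxa2, Hoxa6, Hoxa13, Hoxb2, Hoxb3, Hoxc4, Hoxc5, Hoxc6, Hoxc8 and Hoxd8. Each had a log2 fold change between -0.73 and -0.01 and did not pass.

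A share of Hox counts within a library does not depend on how libraries are scaled. Cluster B made up 48.3%, 44.5% and 44.4% of Hox counts in WT replicates 1 to 3 and 34.6%, 36.0% and 37.4% in RepB-/-. Cluster C made up 35.6%, 39.5% and 39.3% in WT and 49.4%, 48.4% and 47.02% in RepB-/-. Cluster A held 15.3% to 15.8% in every library. The genotypes thus separated for B and C and overlapped for A. Because the shares of a library sum to the whole, a lower share of B raises that of C, and the summed level of C was not higher in RepB-/- (78.0 FPKM) than in WT (83.2 FPKM).

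Hoxc12 and Hoxc13 together held 17.98%, 22.7% and 23.1% of Hox counts in WT and 32.4%, 32.0% and 29.7% in RepB-/-, with 95% Wilson intervals that reach 24.2% at most in WT and start at 28.6% at the lowest in RepB-/-. These intervals cover counting error only. The ratio of Hoxc13 to Hoxb9 FPKM within a library was 0.501, 0.734 and 0.711 in WT and 1.36, 1.28 and 1.22 in RepB-/-. The ratio of Hoxb6 to Hoxb9 FPKM was 0.34 ± 0.0053 in WT and 0.34 ± 0.0211 in RepB-/- (SD, n = 3). These genes were picked for the ratios after their values were seen, and no test was made of the shares or ratios.

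**Figure D4:**
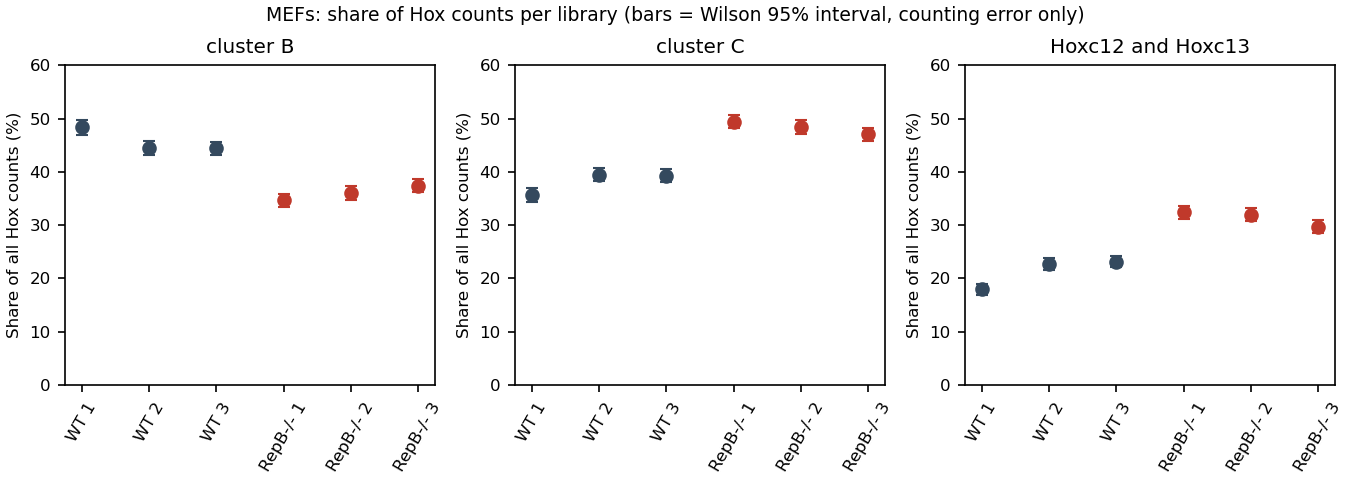
Share of all Hox counts taken by cluster B, cluster C and the pair Hoxc12 and Hoxc13 in each MEF library, in percent with Wilson 95% intervals of counting error. Cluster B lies at 44.4% to 48.3% in WT and 34.6% to 37.4% in RepB-/-, and cluster C and the pair lie higher in RepB-/-, as shares that sum to the whole of a library's Hox counts.

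The summed CPM of the 38 members was 413, 369 and 364 in WT replicates 1 to 3 and 294, 289 and 310 in RepB-/-. WT replicate 1, the shallowest library, was again the highest. Without it, 11 of 30 tested members fell and 0 rose, beside 2484 lower and 2536 higher of 13453 tested genes. The median log2 fold change of the tested members was then -0.34 in place of -0.46. With library totals in place of TMM factors, an alternative chosen after seeing the data, 14 members fell, 0 rose and the median was -0.58. That scaling also moved all genes by -0.11 at the median and turned the split of called genes from 2581 higher and 2621 lower to 1645 higher and 3623 lower.

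Summed markers of several other cell types differed between the genotypes, and their part in the Hox differences was not tested. The counts of markers that rose or fell stand beside 19.4% higher and 19.7% lower among all tested MEF genes. Of 5 macrophage and leukocyte markers, 3 rose and 1 fell, and their sum was 117 to 151 CPM in RepB-/- and 49.6 to 64.6 CPM in WT. Cartilage markers, of which 2 of 4 tested rose, summed to 87.8 to 244 CPM in RepB-/- and 63.9 to 86.4 CPM in WT. Skeletal muscle markers summed to 58.1 to 65.0 CPM in RepB-/- and 122 to 192 CPM in WT, with 1 of 4 tested lower.

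Endothelial markers summed to 19.8 to 21.5 CPM in RepB-/- and 28.8 to 36.2 CPM in WT, with 1 higher and 3 lower of 4. Schwann and neural markers summed to 5.56 to 6.99 CPM in RepB-/- and 10.1 to 11.8 CPM in WT, with 1 of 4 tested lower. Keratinocyte and epithelial markers lay between 6.94 and 13.3 CPM in all libraries, with 1 higher and 1 lower of 6 tested. No marker of these 6 lists was at 0 in all libraries. Of the 10 fibroblast markers, 4 rose and 2 fell.

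Hox proteins bind DNA with TALE homeodomain cofactors of the Pbx, Meis and Prep families. The counts of this and the following lists stand beside 19.4% higher and 19.7% lower among all tested MEF genes. In MEFs 9 of 9 such genes were tested, 0 rose and 1 fell. This was Pbx3, at 22.7, 22.4 and 23.3 CPM in WT and at 18.2, 18.1 and 20.4 CPM in RepB-/- (log2 fold change -0.27, adjusted p = 0.0431 by edgeR).

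Genes that act upstream of Hox expression include the Cdx factors, retinoic acid enzymes and receptors, and hindbrain regulators. Of 19 listed, 11 were tested, 1 rose and 3 fell. Cyp26b1, which degrades retinoic acid, rose (log2 fold change 0.45, adjusted p = 0.00265 by edgeR). Rara, a retinoic acid receptor, fell by 0.59 on the log2 scale, Egr2, a hindbrain factor, by 0.62 and Aldh1a2, which makes retinoic acid, by 0.86.

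For Polycomb, 21 of 21 subunits and partners were tested, 1 rose and 4 fell, against 19.4% and 19.7% of all tested genes, so the lower count is near the background. Rbbp7, a histone-binding subunit also found in other complexes, rose by 0.41 on the log2 scale. Among those that fell, Phc2, of PRC1, fell by 0.55 on that scale, Rnf2, its ubiquitin ligase, by 0.25 and Jarid2, a PRC2 partner, by 0.52. Of 9 Trithorax genes and H3K27 demethylases, 0 rose and 3 fell. Kmt2d, a histone methyltransferase, fell by 0.69, Kmt2a, which maintains Hox transcription, by 0.47 and Kdm6b, a demethylase of the Polycomb mark, by 1.26 on the log2 scale.

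Among 25 tested of 32 other transcription factors that mark body position, 3 rose and 8 fell, with a median log2 fold change of -0.38. The 4 with the most counts among those that passed were Irx3, Irx5, En1 and Foxf1. Irx3 was at 42.1, 34.5 and 33.0 CPM in WT and at 20.9, 23.2 and 23.0 CPM in RepB-/- (log2 fold change -0.70, adjusted p = 0.00021 by edgeR). Irx5, its neighbour in the genome, fell by 0.97 on the log2 scale, and Foxf1, a factor of gut and lung mesenchyme, fell by 0.41. En1, a marker of ventral limb and dermis, rose by 0.42.

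Genes that flank the clusters were taken as a local comparison. Of 15 tested, 3 rose and 2 fell, near the 19.4% and 19.7% of all tested genes, and the median log2 fold change was 0.04. Cbx5, which encodes the heterochromatin protein HP1 alpha, rose by 0.42 on the log2 scale, Skap2 by 0.42 and Lnpk by 0.30. Smug1, a DNA repair enzyme, and Skap1 fell by 0.41 and 1.81. Skap1 lies beyond cluster B, Skap2 beyond cluster A, Cbx5 and Smug1 beyond cluster C and Lnpk beyond cluster D. No noncoding RNA of the clusters had a row in the MEF counts used here.

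Promoters were read from RefSeq (GRCm38.p6) for 22 of the 38 members, as 24 windows of 300 bases. Searched on both strands, the letters TTTATG, which resemble a site of the Cdx factors, were found in 5 of 24 windows (20.8%) and in 11.9% of 32851 promoters of the same length. The letters TGATNNAT, which resemble a joint site of Pbx and Hox proteins, were found in 4 of 24 windows (16.7%) and in 8.85% of all. Neither motif contains the other. Median CG dinucleotides per window were 14.5 for Hox members and 7 for all promoters. A match is a description only. Shown are the 250 bases before the start of the members that fell and held either motif, Hoxa7 (chr6:52218574-52218823, minus strand) and Hoxb8 (chr11:96281655-96281904, plus strand), with matches on either strand in capitals.
Hoxa7: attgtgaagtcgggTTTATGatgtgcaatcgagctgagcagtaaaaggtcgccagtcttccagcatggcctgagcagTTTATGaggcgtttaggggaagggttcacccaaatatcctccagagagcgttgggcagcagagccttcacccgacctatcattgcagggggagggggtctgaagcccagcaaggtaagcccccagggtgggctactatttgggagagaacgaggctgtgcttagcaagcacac
Hoxb8: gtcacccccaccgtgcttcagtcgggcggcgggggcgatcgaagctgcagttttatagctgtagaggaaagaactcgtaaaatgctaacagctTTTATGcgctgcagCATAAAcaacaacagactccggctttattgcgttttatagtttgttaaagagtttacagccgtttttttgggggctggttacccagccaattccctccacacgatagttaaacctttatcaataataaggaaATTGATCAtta
The Hoxa7 stretch held 7 CG dinucleotides and the Hoxb8 stretch held 12. Of the other members that fell, Hoxa3, Hoxa5 and Hoxd9 had windows without either motif. Hoxa4, Hoxb5, Hoxb6, Hoxb7, Hoxb9, Hoxb13 and Hoxc11 also fell but had no window, so their promoters were not searched.

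Liver carried an anterior Hox pattern at a low level. Hoxa2 to Hoxa5 and Hoxb2 to Hoxb5 together held 88.4% to 98.6% of the Hox counts in each liver library. Between 224 and 461 Hox counts were found per library, against 5150 to 6132 in MEFs. Members of paralogues 12 and 13 had 0 counts in every liver library, 17 of 38 members were at 0 throughout, and 24 had no more than 3 counts in any library. In the deposited TPM, a level per length, the WT means of these 8 members ran from 0.45 for Hoxa4 to 1.03 for Hoxa5. Levels in liver and MEFs come from separate tables and were not compared by a test.

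In the comparison of RepB-/- with WT liver, 8 members were tested, and 0 rose and 0 fell by edgeR at an adjusted p of 0.05, or by DESeq2. Among the 16080 genes tested, 0.0311% fell and 0.00622% rose. At an unadjusted p of 0.05, 0 members were higher and 0 lower, against 1.63% and 1.49% of all genes tested. SEs of the log2 fold changes were 0.43 to 0.86.

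Hoxb5 was at 0.42, 0.96 and 0.70 CPM in WT replicates 1 to 3 and at 0.32, 0.18 and 0.41 CPM in RepB-/-. It was the one tested member whose libraries did not overlap, with RepB-/- below WT, as for 4.66% of all tested genes. No tested member had RepB-/- above WT without overlap, as 3.38% of all tested genes had. The log2 fold change was -1.21 ± 0.56, with an adjusted p of 1.00 by edgeR.

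Hoxa4 was at 0.42, 0.44 and 0.38 CPM in WT and at 0.53, 0.14 and 1.66 CPM in RepB-/-. RepB-/- replicate 3 stood far above the rest, and the log2 fold change was 0.90 ± 0.86. Hoxa5 was at 2.07, 0.34 and 0.68 CPM in WT and at 1.15, 0.48 and 0.64 CPM in RepB-/- (log2 fold change -0.45 ± 0.76). In both genotypes replicate 1 was the highest library for Hoxa5.

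Hoxa3 was at 2.07, 0.70 and 0.36 CPM in WT and at 1.17, 0.46 and 1.49 CPM in RepB-/- (log2 fold change -0.01 ± 0.78). Hoxa2, a gene of the hindbrain and second pharyngeal arch, was at 1.16, 0.54 and 0.61 CPM in WT and at 0.63, 0.24 and 0.90 CPM in RepB-/- (log2 fold change -0.39 ± 0.63). Both overlapped widely, with RepB-/- replicate 2 low.

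Hoxb2 was at 1.43, 0.59 and 1.04 CPM in WT and at 1.52, 0.70 and 0.67 CPM in RepB-/- (log2 fold change -0.08 ± 0.56). Hoxb3 was at 1.18, 0.70 and 1.18 CPM in WT and at 1.42, 1.13 and 0.99 CPM in RepB-/- (log2 fold change 0.21 ± 0.43). Hoxb4 was at 0.76, 0.85 and 1.42 CPM in WT and at 1.56, 0.99 and 1.31 CPM in RepB-/- (log2 fold change 0.35 ± 0.45). All 3 overlapped, and the adjusted p of each of these 8 genes was 1.00 by edgeR.

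**Figure D5:**
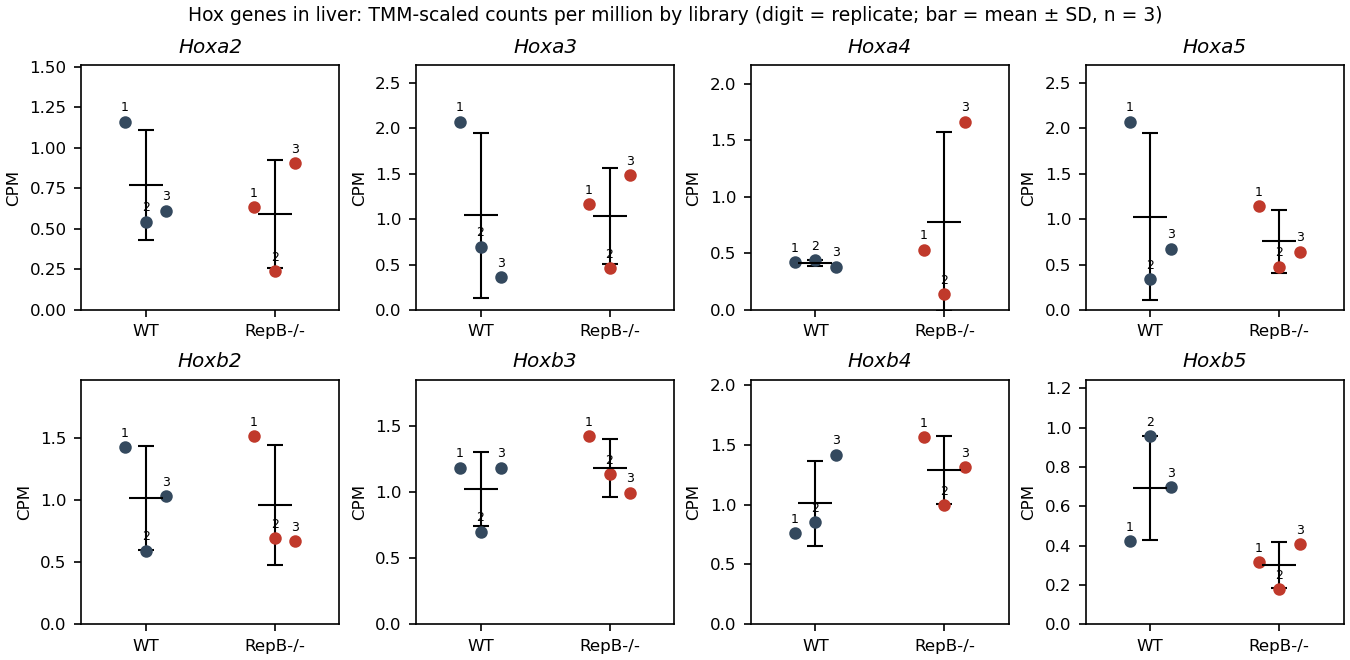
CPM of the 8 tested Hox genes in each liver library, with the replicate number over each point and bars for mean ± SD (n = 3). Replicate 1 is the highest WT library for Hoxa2, Hoxa3, Hoxa5 and Hoxb2, and the genotypes overlap for every gene except Hoxb5.

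The liver libraries differed from each other in fetal markers. Fetal hepatocyte markers summed to 5871 CPM in RepB-/- replicate 1 and 4674 CPM in WT replicate 1 and to no more than 19.98 CPM in the other 4 libraries. Summed Hox CPM was 9.10, 4.53 and 8.34 in RepB-/- replicates 1 to 3 and 9.66, 5.79 and 6.55 in WT, so that replicate 1 was the highest library of each genotype. Fibroblast markers were also highest there, at 1405 and 939 CPM, as were, within each genotype, erythroid and haematopoietic markers, at 3102 and 1122 CPM against 193 to 1570 in the others. Their part in the Hox levels was not tested. With both replicate 1 libraries left out, chosen after seeing the data, or without RepB-/- replicate 2, 0 Hox genes were called. With that male-like replicate 2 dropped, the log2 fold changes were -0.0105 for Hoxa2, 0.35 for Hoxa3, 1.40 for Hoxa4, -0.20 for Hoxa5, 0.105 for Hoxb2, 0.24 for Hoxb3, 0.51 for Hoxb4 and -0.94 for Hoxb5. Those of Hoxa3 and Hoxb2 thereby changed sign.

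In liver, 0 genes rose and 0 fell in any of the lists of TALE cofactors (9 tested), upstream inputs (14), Polycomb (21), Trithorax and demethylases (9), positional factors (5) and flanking genes (15). Pbx2, a TALE cofactor, lay between 19.5 and 26.7 CPM in the liver libraries. Of 10 noncoding RNAs of the clusters with a row, 1 was tested, Hotairm1 of cluster A, which lay between 0.10 and 0.60 CPM and had a log2 fold change of -0.31.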

How the data were processed

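Polyadenylated RNA of 12 libraries was analysed, 6 of primary MEFs and 6 of liver, and 6 brain libraries were not used here. Per the paper's methods, Cutadapt trimmed the reads and Hisat2 aligned them, while the submitters' processing notes name Trim Galore 0.4.1, STAR 2.7.0 and HTSeq 0.12.4 without a role. The authors deposited whole-number counts per gene and FPKM for MEFs, which equal counts divided by gene length and table total, and counts, TPM and FPKM for liver. The methods call the MEF libraries stranded. Whether counting used strand, and the annotation, are not given in the sources used here.

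Members and lists were chosen with earlier results of these data known. Each tissue was fitted alone with edgeR 4.0.16 in R 4.3.3 (TMM, filterByExpr, quasi-likelihood test, Benjamini-Hochberg adjusted p of 0.05 over all genes), and the fit was tested on simulated data. SE is the log2 fold change divided by the square root of F. CPM is scaled by TMM factors. Genes shown by library were the members that passed and up to 8 with the highest mean CPM that did not, and for lists up to 4 that passed, of which some are not reported here. Alternatives were DESeq2 1.42.0, its size factors, no filter, a replicate block, and leaving out each library. Replicate pairs differed beyond counting noise (chi-square per degree of freedom of at least 3.69). Liver libraries with the same number deviated together (correlations 0.74, 0.41 and 0.39). RepB-/- replicate 2 with WT replicate 3, and RepB-/- replicate 3 with WT replicate 2, did so as well (0.47 each). Liver replicate 1 thus stood apart in both genotypes, and a pairing of replicates 2 and 3 by number was not shown. MEF libraries with the same number did not deviate together (0.00, -0.05 and -0.01). A count of 0 allows up to 3 counts. Homeoboxes came from GENCODE vM21 transcripts and promoters from RefSeq.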

Additional observations from a re-analysis of the deposited data

How the results depend on the processing

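In MEFs, 12 of 30 tested members fell in the main fit, beside 2621 of 13306 tested genes. DESeq2 gave 11 of 32 lower, beside 2754 of 16355 genes, and its size factors in edgeR gave 12 of 30, beside 2693 of 13306. No filter on low counts gave 13 of 37, beside 3114 of 19330. Library totals gave 14 of 30, beside 3623 of 13306. Leaving out a library gave 9 to 12 of 29 or 30, beside 2038 to 2726 of 13453 to 13684 genes. Members that rose numbered 0 in the main fit, 2 with no filter, and 0 to 1 when a library was left out. Beside these, 2581, 3067 and 1918 to 2536 of all tested genes rose. The replicate block gave 11 lower and 0 higher in MEFs, beside 2538 and 2468 of 13306 tested genes. There Hoxa4 no longer passed (adjusted p = 0.0585 by edgeR). In liver the block gave 0 of either. For 8 of the 12 members the call held in 11 of 11 alternatives (Hoxa5, Hoxb5, Hoxb6, Hoxb7, Hoxb8, Hoxb9, Hoxb13 and Hoxc11). Hoxa3, Hoxa4, Hoxa7 and Hoxd9 lost it in at least 1. Hoxa10, Hoxb3 and Hoxc9 had not passed in the main fit. Each kept that result in 10 of 11 alternatives and fell in the other. The MEF median log2 fold change over all genes was -0.12 with no filter and -0.16 with DESeq2, both over larger sets with low-count genes. On the 13306 genes of the main fit, DESeq2 size factors in edgeR gave -0.0075. In liver, the median moved to -0.15 with library totals.

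Log2 fold changes of members that had not passed changed sign in places, and the cause was not tested. When one MEF library was left out, Hoxa11 ranged from -0.12 to 0.0766, Hoxc5 from -0.32 to 0.75, Hoxc4 from -0.30 to 0.0161, Hoxa2 from -0.55 to 0.11 and Hoxb4 from -0.19 to 0.20. With no filter, Hoxa11 came to 0.0053 and Hoxc5 to 0.0181. With the replicate block Hoxc5 came to 0.062, and with library totals Hoxb4 came to -0.0637. When one liver library was left out, Hoxa2 ranged from -0.82 to 0.0248, Hoxa3 from -0.42 to 0.97, Hoxa4 from -0.30 to 1.40, Hoxa5 from -0.88 to 0.58 and Hoxb2 from -0.57 to 0.24. In liver, Hoxa3 came to 0.13 with the replicate block, and with both replicate 1 libraries left out Hoxa3 came to 0.87 and Hoxa5 to 0.13. Library totals and the fit without both replicate 1 libraries were chosen after seeing the data. In liver the tested members had 7 to 93 counts per library, and the biological coefficient of variation was 51.2%, against 9.06% in MEFs.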
